A study of Rattus norvegicus with 46 samples.

Results

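The left ventricle of the rat was examined 6 weeks after banding of the ascending aorta. Of the 46 arrays in the series, 4 belong to this time point: 2 from banded hearts, titled with replicate numbers 1 and 2, and 2 from sham-operated hearts with replicate numbers 3 and 4. They were chosen by their titles and described over all 8740 probe sets. All animals were male Wistar rats. In the banded group a titanium clip narrowed the ascending aorta, and sham animals had the operation with no clip. No array stands for a single rat. At each time point the animals of a group were split at random, RNA from the left ventricles of each subgroup was pooled, and each pool went onto 1 Affymetrix RGU34A array. A p-value below therefore speaks of how pools varied, not of how rats varied. Rat age and the size of a pool are not given in the labels.

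A clip on the ascending aorta raises the pressure against which the left ventricle has to eject. Under such pressure overload cardiomyocytes grow thicker, take up again parts of the gene program of the fetal heart, secrete natriuretic peptides, and in long-standing overload shift their fuel use away from fatty acids while the interstitium gains matrix. Atrial and B-type natriuretic peptide are hormones that lower blood pressure and promote salt loss, and their genes, Nppa and Nppb, are classical markers of a loaded ventricle. The probe sets of an Affymetrix array are groups of short oligonucleotides matched to 1 transcript, and the value used here is the intensity that summarises them.

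The genes called higher in banded hearts at 6 weeks included Nppa, Nppb and Acta1, the gene of skeletal alpha-actin, an actin of the fetal ventricle. The windows of 250 bases that end just before their annotated starts are shown because these 3 genes moved in the same direction and short motifs of muscle and heart promoters can be read in them. The sequences come from RefSeq on rat build GRCr8, written 5′ to 3′ along the gene. Capitals mark 3 motifs, searched on both strands. The MCAT motif is spelled CATTCC. The GATA motif was searched in the spellings AGATAA and TGATAA, as well as AGATAG and TGATAG. The last is the CArG box of serum response factor.
Nppa, chr5:163711934-163712183, plus strand: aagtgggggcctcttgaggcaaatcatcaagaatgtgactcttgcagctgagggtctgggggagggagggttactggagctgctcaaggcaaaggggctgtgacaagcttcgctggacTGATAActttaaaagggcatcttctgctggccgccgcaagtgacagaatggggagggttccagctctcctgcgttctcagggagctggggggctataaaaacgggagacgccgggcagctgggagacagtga
Nppb, chr5:163699758-163700007, plus strand: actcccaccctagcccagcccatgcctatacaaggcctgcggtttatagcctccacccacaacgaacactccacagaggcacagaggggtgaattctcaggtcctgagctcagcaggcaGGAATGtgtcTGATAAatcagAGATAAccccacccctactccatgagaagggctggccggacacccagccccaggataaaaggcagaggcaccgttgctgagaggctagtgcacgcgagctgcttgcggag
Acta1, chr19:68784195-68784444, minus strand: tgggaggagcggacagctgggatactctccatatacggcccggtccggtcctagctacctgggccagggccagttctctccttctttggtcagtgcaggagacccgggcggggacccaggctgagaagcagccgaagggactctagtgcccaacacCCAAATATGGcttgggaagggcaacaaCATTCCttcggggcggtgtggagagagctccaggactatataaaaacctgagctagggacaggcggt
The Nppa window holds 1 GATA match, 132 to 127 bases before the start. That of Nppb holds an MCAT match from 131 to 126 bases and GATA matches from 121 to 116 and from 110 to 105 bases before the start. In Acta1 the CArG box lies 94 to 85 bases and the MCAT match 67 to 62 bases before the start. Of 33465 rat windows of this length, 12.1% held an MCAT match, 27.0% a GATA match and 1.5% a CArG box. Among the genes called higher in banded hearts, 26 had a window, of which 6 held MCAT (23.1%), 6 GATA (23.1%) and 1 a CArG box (3.85%). Of the 9 windows of genes called lower, 1 held MCAT, 1 GATA and 0 a CArG box. The matches in the windows shown do not overlap. A match describes letters only, and binding was not measured.

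Among the 4 arrays, sham replicate 3 stood apart at the bright end. The highest intensity was 59231 and 64884 in the banded arrays, against 27718 in sham replicate 3 and 64867 in sham replicate 4. The 99th percentile was 29827 and 30319 in the banded arrays, against 19141 in sham replicate 3 and 26109 in sham replicate 4. Medians were alike, at 1048 in both banded arrays and 1034 and 1003 in the sham arrays. Over all probe sets the log2 values correlated at r = 0.9896 between the banded arrays and r = 0.979 between the sham arrays, where arrays of 1 group anywhere in the series ranged between 0.9649 and 0.9937. The brightest 2% of the probe sets, a slice chosen after the values were seen, numbered 175 and had a median difference of 0.37 log2 between banded and sham, which became -0.018 when all arrays were forced to 1 common distribution (quantile normalization). Values for many bright genes are therefore given both ways below.

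An effect is the log2 difference between the mean of the banded arrays and the mean of the sham arrays, with intensities raised to at least 16, and it is given ± its standard error (n = 2 arrays a group). The error comes from a limma fit over all 46 arrays with a mean for each of the 20 groups, so that the pools of the whole series share 1 estimate of spread per probe set. A probe set was called when its limma adjusted p (Benjamini-Hochberg, 8740 probe sets) was below 0.05. At 6 weeks 57 probe sets were called, 0.652% of all, with 41 higher (0.469%) and 16 lower (0.183%) in banded hearts. At an unadjusted p below 0.05 there were 723, or 8.27%. The called probe sets carried 44 distinct gene symbols, 31 of genes that were higher and 13 of genes that were lower. After quantile normalization the split was 39 higher and 28 lower, with 49 of the 57 still called. In each of the 57 both banded arrays lay on the same side of both sham arrays. Such a lack of overlap is common with 2 arrays a group: the banded arrays were above both sham arrays in 20.4% and below both in 15.7% of all probe sets, and an exact test of 2 against 2 cannot go below p = 0.333. Leaving out each of the 4 arrays in turn, 12 of the 57 probe sets were called every time, and 11 of these also after quantile normalization. The calls were lost for 21 without sham replicate 3, 26 without sham replicate 4, 42 without banded replicate 1 and 37 without banded replicate 2. The 11 belong to Nppa (4 probe sets), Ccnd2 (2), Acta1, Ankrd1, Myh7, Akip1 and Pam.

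**Figure D1:**
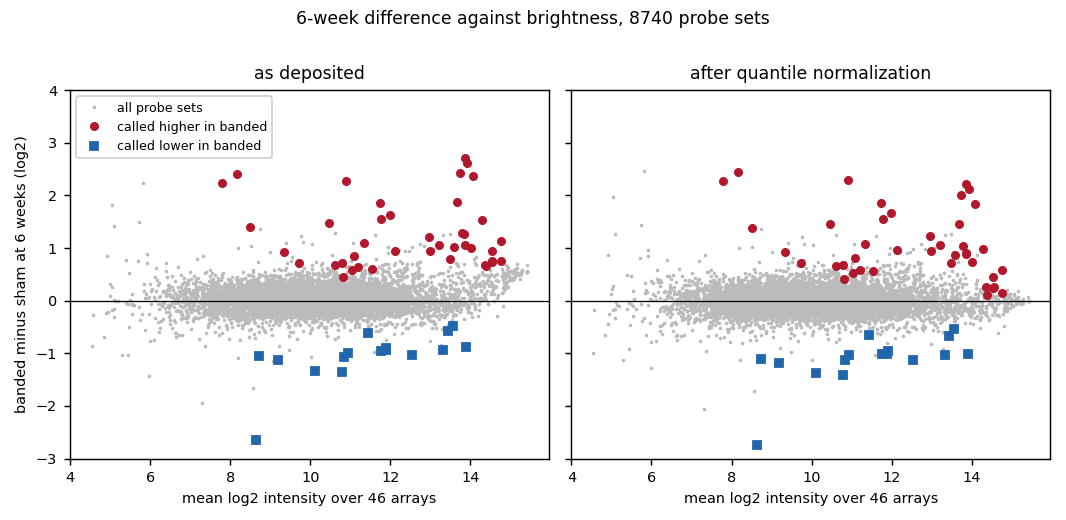
Banded minus sham difference at 6 weeks (log2, y axis) against the mean log2 intensity over 46 arrays (x axis) for 8740 probe sets, as deposited (left) and after quantile normalization (right). Circles are the 41 probe sets called higher and squares the 16 called lower on the deposited values; the brightest probe sets bend upward on the left and lie near 0 on the right.

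The natriuretic peptide genes Nppa and Nppb rose in banded hearts. Nppa had intensities of 48949 and 49977 in the banded arrays, against 12077 and 7608 in the sham arrays. Both banded arrays were far above both sham arrays, which differed more from each other than the banded ones did. The effect was 2.37 ± 0.259 log2, a 5.16-fold rise (limma adjusted p = 2.19e-06), and the gene's other 3 probe sets were called as well, at 2.42, 2.62 and 2.71 log2. Without sham replicate 3 it was 2.70 and without sham replicate 4 it was 2.03 log2, called in both cases. After quantile normalization the Nppa effect was 1.84 log2 and called (limma adjusted p = 5.38e-05). Nppb read 24158 and 22118 in banded hearts, against 10028 and 8963 in sham hearts. The groups did not overlap. After quantile normalization the Nppb effect was 1.05 log2 (limma adjusted p = 0.0298). On the deposited values the effect of 1.29 ± 0.261 log2 was called (limma adjusted p = 0.00983). That call was lost without sham replicate 4 (limma adjusted p = 0.0581), without banded replicate 1 (0.17) and without banded replicate 2 (0.0579). Pam, the enzyme that amidates the ends of secreted peptides and is abundant in atrial granule membranes, had 30530 and 32431 units in banded hearts and 18028 and 20067 units in sham hearts. Its effect was 0.73 ± 0.121 log2 (limma adjusted p = 0.000818), but 0.25 log2 after quantile normalization (limma adjusted p = 0.338). Another Pam probe set had 21183 and 21632 units in banded hearts and 12215 and 9490 units in sham hearts, an effect of 0.99 ± 0.153 log2 (limma adjusted p = 0.000263) that was still called after quantile normalization, at 0.73 log2 (0.00606), and without any 1 of the 4 arrays. A further Pam probe set of similar brightness stood at 0.66 log2 and was not called (limma adjusted p = 0.218). The remaining Pam probe sets, all dimmer, lay between 0.04 and 0.31 log2, none called. The call of the brightest was also lost when the gene's probe sets were averaged, or when banding and banding sham arrays alone were fitted. Of the 7 measured genes of the natriuretic list 3 were called, all higher, where 0.528% of the 4736 genes were called higher. The list's median was 0.42 log2, against 0.02 log2 for all genes, and 0.65 and 0.16 log2 without sham replicates 3 and 4. Nppc, of the C-type peptide, and the receptors Npr1 and Npr3 had effects of -0.05, -0.14 and 0.16 log2, none called. Here and below, list members without a call, and called probe sets that are not their gene's brightest, were where outside the naming rule named after their values were seen. Because the RNA comes from whole ventricle, a change in the number of cells of a type and a change in RNA per cell cannot be told apart here.

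**Figure D2:**
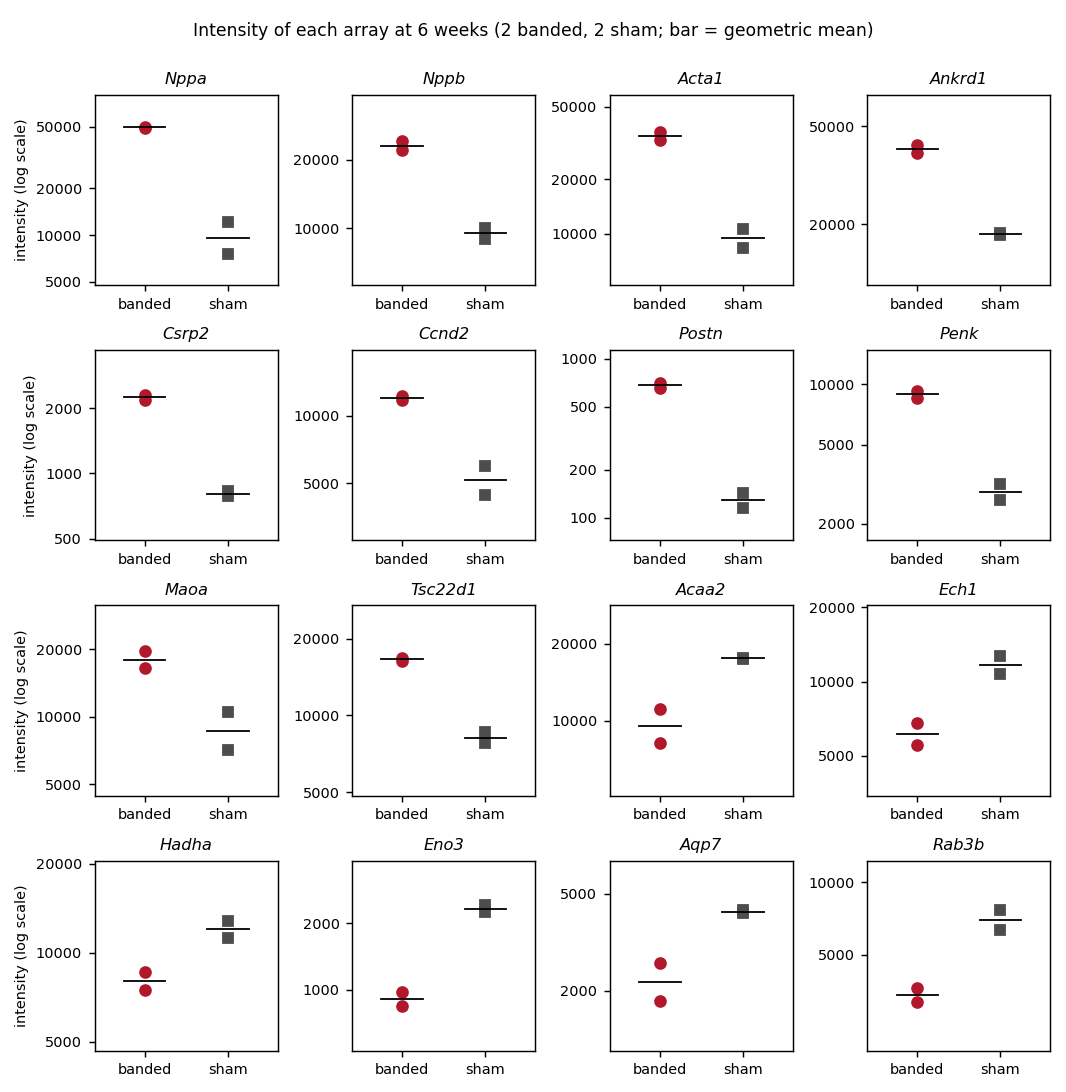
Intensity of each of the 4 arrays at 6 weeks (y axis, log scale, arbitrary units) for 16 called genes, with banded pools as circles on the left and sham pools as squares on the right; bars are geometric means of 2 arrays. In every panel the groups do not overlap: the first 10 genes are higher and the last 6, from Acaa2 to Rab3b, lower in banded hearts.

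Among contractile and Z-disc genes Acta1, Ankrd1 and Csrp2 rose, while the values of many bright genes depended on sham replicate 3. Acta1 had 32936 and 36314 units in banded hearts, against 10664 and 8347 units in sham hearts. Both banded readings were far above both sham readings, and the effect was 1.87 ± 0.238 log2 (limma adjusted p = 1.15e-05), or 1.45 log2 after quantile normalization. Ankrd1, a titin-binding nuclear and Z-disc protein induced by stretch, read 39085 and 41760 in banded hearts and 18525 and 18136 in sham hearts. The spread inside each group was small beside the gap, and its effect of 1.14 ± 0.134 log2 was called (limma adjusted p = 4.41e-06). After quantile normalization the Ankrd1 effect was 0.58 log2 and still called (limma adjusted p = 0.00445), and it was 0.63 log2 and called against all 8 banding sham arrays (0.000491). Csrp2, a LIM protein best known from smooth muscle, had 2311 and 2188 units in banded hearts, against 830 and 787 units in sham hearts. It is of moderate brightness, the groups were well apart, and the effect was 1.48 ± 0.290 log2 (limma adjusted p = 0.00735), with 1.46 log2 after quantile normalization. Its call was lost without either banded array (limma adjusted p = 0.12 without replicate 1 and 0.0579 without replicate 2), although the effect stayed at 1.44 and 1.52 log2.

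For the myosin heavy chains the result depended on the probe set. Myh7 encodes the slow beta-myosin, which rises in the loaded rat ventricle, and Myh6 the fast alpha-myosin. The brightest Myh7 probe set, of the type that Affymetrix marks as shared within a gene family, had 51291 and 56325 units in banded hearts, against 24601 and 49511 in sham hearts, an effect of 0.62 ± 0.206 log2 that was not called (limma adjusted p = 0.254). In it sham replicate 4 came close to the banded arrays and sham replicate 3 was far below. The gene's other probe set read 37763 and 41434 in banded hearts and 15026 and 12602 in sham hearts. Here both sham arrays were low, and the effect was 1.52 ± 0.214 log2 (limma adjusted p = 5.94e-05), or 0.98 log2 after quantile normalization (limma adjusted p = 0.0408). Signal of the near-identical myosins Myh6 and Myh7 may be shared by such probe sets, so that these values are uncertain. Myh6 had 48265 and 50410 units in banded hearts, against 24144 and 45700 units in sham hearts, an effect of 0.57 ± 0.294 log2 (limma adjusted p = 0.655) that was 0.05 log2 after quantile normalization. Atp2a2, the calcium pump of the sarcoplasmic reticulum, was in its brightest probe set at 0.55 log2 (limma adjusted p = 0.406) and -0.01 log2 after quantile normalization, and its other 3 probe sets lay between -0.12 and -0.27 log2.

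Of the 18 measured genes of fetal heart and sarcomere isoforms only Acta1 was called, where 0.528% of all genes were called higher. The list's median was 0.43 log2 as deposited, 0.01 log2 after quantile normalization and 0.003 log2 without sham replicate 3. Actc1, Tnni3 and Tpm1, of cardiac actin, troponin I and tropomyosin, lay at 98.7% to 100% of the highest value of every one of the 4 arrays, so that their differences followed the arrays' upper limits. Ckb, the brain-type creatine kinase that belongs to the fetal pattern, had 14376 and 14366 units in banded hearts, against 9641 and 5039 units in sham hearts, an effect of 1.04 ± 0.268 log2 that was not called (limma adjusted p = 0.0673). A second Ckb probe set was called at 1.09 log2 (limma adjusted p = 0.0271). Among 13 Z-disc and stretch-responsive genes 2 were called higher, Csrp2 and Ankrd1, where 0.528% of all genes were called higher. The list's median of 0.51 log2 became 0.18 log2 after quantile normalization. The intermediate filament gene Des was just outside, with 28439 and 29946 units in banded hearts and 16869 and 18754 units in sham hearts, 0.71 ± 0.179 log2 (limma adjusted p = 0.0543).

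Of the matrix genes Postn rose, and most others had effects above 0 without a call. Postn, which encodes periostin, a matrix protein of activated fibroblasts, had 706 and 652 units in banded hearts, against 143 and 115 units in sham hearts. The banded pools were several times brighter than both sham pools. The effect was 2.40 ± 0.556 log2, a 5.28-fold rise (limma adjusted p = 0.0285). It lay between 2.24 and 2.56 log2 when any of the 4 arrays was left out, but the call was lost each time (limma adjusted p = 0.0569 and 0.149 without sham replicates 3 and 4, 0.298 and 0.19 without banded replicates 1 and 2). Of 28 measured matrix genes 24 had an effect above 0, against 54.3% of all genes. In 14 of them both banded arrays were above both sham arrays and in 1, Ccn1, both were below, where these counts over all 4736 genes were 948 and 755. The median was 0.29 log2, 0.23 log2 after quantile normalization and 0.24 log2 without sham replicate 3. Postn was the only call by the brightest probe set, where 0.528% of all genes were called higher. Loxl1, which cross-links elastin, stood at 1.25 ± 0.376 log2 in its brightest probe set, not called (limma adjusted p = 0.176). Its other probe set was at -0.0026 log2 (limma adjusted p = 0.999), with banded replicate 1 below and replicate 2 above both sham arrays. The collagen genes Col1a1, Col1a2 and Col3a1 stood at 0.10, 0.37 and 0.49 log2, none called. A second probe set of Bgn, the proteoglycan biglycan, named after its values were seen, had 6909 and 5025 units in banded hearts and 2298 and 1744 units in sham hearts. It was called at 1.56 ± 0.306 log2 (limma adjusted p = 0.00735; 0.0759 without sham replicate 4), while the gene's brightest probe set was at 0.72 log2 (limma adjusted p = 0.12).

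Around the matrix list, the 11 measured annexin and S100 genes, of calcium-binding proteins, had 0 calls, and in 9 of them both banded arrays were above both sham arrays, against 948 of all 4736 genes. Their median was 0.29 log2 both as deposited and after quantile normalization, and 0.18 log2 without sham replicate 4. Anxa2 stood at 0.57 log2 and Anxa5 at 0.52 log2, while S100a1, the S100 protein of cardiomyocytes, was at -0.36 log2. The 20 matrix proteases and inhibitors had a median of 0.12 log2 and 0 calls, with Ctsl at 0.53 log2 and Timp2 at 0.46 log2. The 21 non-muscle cytoskeleton genes had a median of 0.14 log2 and 0 calls, with Vim at 0.67 log2 and Pfn1 at 0.55 log2. The summed intensity of fibroblast markers was 74399.5 and 78064 in banded hearts, against 51612 and 67640 in sham hearts, and 8 of 10 had effects above 0, with Postn and the collagens in both lists. The part of cell number in the matrix values was not tested.

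Ccnd2, a D-type cyclin that drives cells out of G1, rose in banded hearts. Its brightest probe set had 11675 and 12216 units in banded hearts, against 4442 and 5980 units in sham hearts. The groups were clearly apart and the effect was 1.21 ± 0.196 log2 (limma adjusted p = 0.000592), with 1.23 log2 after quantile normalization. A second probe set rose further, by 1.85 ± 0.268 log2 (limma adjusted p = 9.59e-05), with 7029 and 6250 units in banded hearts and 1624 and 2083 units in sham hearts. The other 21 cell cycle genes were not called, where 0.528% of all genes were called higher and 0.211% lower. Ccnd1 and Ccnd3, the sister cyclins, were at 0.12 and 0.11 log2, the proliferation genes Pcna and Top2a at 0.03 and 0.18 log2, and the stress-induced Gadd45a at 0.76 ± 0.199 log2 (limma adjusted p = 0.0777). Tsc22d1, a leucine zipper gene first found as a TGF-beta target, had 16304 and 16862 units in banded hearts, against 8637 and 7770 units in sham hearts. It was called at 1.02 ± 0.221 log2 (limma adjusted p = 0.0163), with the call lost without sham replicate 4 (0.108), banded replicate 1 (0.17) or banded replicate 2 (0.169). After quantile normalization Tsc22d1 was at 0.87 log2 (limma adjusted p = 0.0268). Tsc22d1 was the only call among 38 measured genes of TGF-beta and growth factor signalling, whose median was 0.002 log2. Over all genes 0.528% were called higher. The 19 immediate early genes had 0 calls and a median of 0.03 log2. Dusp1 and Egr1, early response genes of many stimuli, had the largest values there, -0.74 ± 0.220 log2 (limma adjusted p = 0.163) and -0.62 ± 0.368 log2 (limma adjusted p = 0.769).

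Stress proteins contributed 4 calls among 22 measured heat shock and chaperone genes, all higher, where 0.528% of all genes were called higher, and 3 of them were bright genes that lost the call after quantile normalization. Hspb1, the small heat shock protein Hsp27, had 20872 and 31488 units in banded hearts, against 14217 and 8033 units in sham hearts. Its arrays were widely spread within both groups without overlap, and the effect was 1.26 ± 0.285 log2 (limma adjusted p = 0.0233), or 0.91 log2 after quantile normalization (limma adjusted p = 0.154). Without sham replicate 4 or banded replicate 2 the Hspb1 call was lost as well (limma adjusted p = 0.457 and 0.4). A second Hspb1 probe set read 12721 and 12389 in banded hearts and 7090 and 5935 in sham hearts, and its call at 0.95 log2 held after quantile normalization at 0.94 log2 (limma adjusted p = 0.00445), though not without sham replicate 4 (0.124). The remaining Hspb1 probe sets were at 1.02 log2 (limma adjusted p = 0.243) and 0.15 log2 (0.998), neither called. In the latter, sham replicate 3 at 2956 was above both banded arrays, at 2819 and 2901. Hspb6, the heart's Hsp20, was at 0.65 ± 0.131 log2 (limma adjusted p = 0.00856) and 0.11 log2 after quantile normalization (0.888). Clu, the secreted chaperone clusterin, was at 0.75 ± 0.156 log2 (limma adjusted p = 0.0106) and 0.25 log2 after quantile normalization (0.591). Dnajb5, a dimmer co-chaperone, was at 0.64 ± 0.132 log2 (limma adjusted p = 0.0106), a call that held after quantile normalization but was lost without sham replicate 4, where the effect was 0.34 log2 (limma adjusted p = 0.501). Leaving out banded replicate 1 or 2 ended the calls of Hspb6 (0.0953 and 0.102), Clu (0.229 and 0.0579) and Dnajb5 (0.209 and 0.0582), and leaving out sham replicate 3 those of Hspb6 (0.0518) and Clu (0.149). Against the 8 banding sham arrays Hspb6 was at 0.38 log2 and called (0.0426) and Dnajb5 at 0.33 log2 and not (0.113). The list's median was 0.10 log2, and the general chaperones Hspa5, Hspd1 and Hsp90ab1 were at -0.45, -0.09 and 0.03 log2, none called.

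Penk and Maoa were further genes that rose, and Map1a rose in its brightest probe set. Penk, the precursor of the enkephalin opioid peptides, which the rat ventricle is known to transcribe, had 9268 and 8586 units in banded hearts, against 3170 and 2647 units in sham hearts. The banded pools were close to each other and far from both sham pools, and the effect was 1.62 ± 0.359 log2, a 3.08-fold rise (limma adjusted p = 0.0195). It was 1.66 log2 after quantile normalization, and between 1.49 and 1.75 log2 with single arrays left out, where the call held only without sham replicate 3 (limma adjusted p = 0.0397, against 0.124 without sham replicate 4, 0.257 without banded replicate 1 and 0.133 without banded replicate 2). Against all 8 banding sham arrays the Penk effect was 1.00 log2 and not called (0.0635). Maoa, which degrades catecholamines and serotonin, had 16415 and 19594 units in banded hearts, against 7114 and 10500 units in sham hearts. Its probe sets gave 1.05 log2 each (limma adjusted p = 0.0106 and 0.0161). After quantile normalization they gave 0.89 and 1.05 log2 (limma adjusted p = 0.0174 and 0.00975). Maoa was the 1 call among 26 genes of adrenergic signalling, whose median was 0.03 log2, where 0.528% of all genes were called higher. The Maoa call by the brightest probe set was lost without sham replicate 3, at 0.77 log2 (limma adjusted p = 0.178), and without banded replicate 1 (0.0584) or 2 (0.241). Against all 8 banding sham arrays it was 0.48 log2 and not called (0.176). Map1a, a microtubule-associated protein, was not called in its dimmer probe set, at -0.03 log2 (limma adjusted p = 0.998). Its brightest probe set had 3448 and 3260 units in banded hearts and 2114 and 1628 units in sham hearts. It was called at 0.85 ± 0.175 log2 (limma adjusted p = 0.00995). That call was lost without sham replicate 4 (0.164), banded replicate 1 (0.17) or banded replicate 2 (0.0582), and the effect was 0.54 log2 against the 8 sham arrays (0.0298).

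In 3 further calls a single banded array was high. Mbp, myelin basic protein, had 436 and 1818 units in banded hearts, against 314 and 367 units in sham hearts. Only banded replicate 2 stood out, and without it the effect of 1.39 ± 0.319 log2 (limma adjusted p = 0.0271) was 0.36 log2 (0.728), with the call also lost without sham replicate 3 (0.123). The other 6 measured markers of Schwann cells and nerve were not called. For Akr1c3, an aldo-keto reductase, the banded arrays read 1384 and 755 and the sham arrays 522 and 557, an effect of 0.92 ± 0.189 log2 (limma adjusted p = 0.00995) that was 0.48 log2 without banded replicate 1 (0.872) and lost its call without sham replicate 3 too (0.0558). The other Akr1c3 probe set read 604 and 632 in banded hearts and 637 and 638 in sham hearts, -0.05 log2 (limma adjusted p = 0.998). Over the gene's probe sets the mean effect was 0.44 log2 and not called (0.0923). Syt9, a synaptotagmin of regulated secretion, had 1436 and 946 units in banded hearts, against 732 and 685 units in sham hearts. Its effect was 0.72 ± 0.131 log2 (limma adjusted p = 0.00338), and 0.42 log2 without banded replicate 1 (0.433).

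Akip1, singled out after its values were seen because its brightest probe set was not called, encodes a protein that binds the catalytic subunit of protein kinase A. A probe set of Akip1 had 4131 and 4792 units in banded hearts, against 1139 and 738 units in sham hearts. The groups were far apart, and the effect was 2.28 ± 0.278 log2 (limma adjusted p = 6.46e-06). It was 2.29 log2 after quantile normalization and 2.59 and 1.97 log2 without sham replicates 3 and 4. A dimmer probe set of the same gene, with 481 and 590 units in banded hearts and 136 and 94.1 units in sham hearts, gave 2.23 ± 0.393 log2 (limma adjusted p = 0.00199). The brightest Akip1 probe set had 1977 and 1975 units in banded hearts and 1570 and 1801 units in sham hearts, 0.23 log2 (limma adjusted p = 0.854). Akip1 has 4 probe sets on the array, and the last of them was not called either. Plscr3, Mvp, Trappc1, Hs6st1 and Anapc15, also called and outside the naming rule, had effects between 0.45 and 0.72 log2 and lost their calls without sham replicate 4 (limma adjusted p from 0.142 to 0.715).

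Enzymes of fatty acid oxidation were among the genes that fell. Acaa2, the thiolase that completes each round of mitochondrial beta-oxidation, had 8132 and 11104 units in banded hearts, against 17654 and 17497 units in sham hearts. Both sham pools agreed closely, both banded pools were below them, and the effect was -0.89 ± 0.170 log2 (limma adjusted p = 0.0067). Ech1, an isomerase for unsaturated fatty acids, had 5522 and 6800 units in banded hearts, against 10738 and 12728 units in sham hearts, an effect of -0.93 ± 0.191 log2 (limma adjusted p = 0.00995). Hadha, the alpha subunit of the trifunctional protein, had 7449 and 8629 units in banded hearts and 12794 and 11216 units in sham hearts, -0.58 ± 0.135 log2 (limma adjusted p = 0.0298). In the probe sets given, none of these 3 overlapped between the groups. After quantile normalization they stood at -1.02, -1.03 and -0.67 log2, all called. Other Hadha probe sets were at -0.57 and -0.18 log2 (limma adjusted p = 0.243 and 0.986). In the latter, banded replicate 1 at 2426 lay above sham replicate 4 at 2325. The mean over the Hadha probe sets was -0.45 log2 and not called (0.277). Acaa2 lost its call without banded replicate 1 (limma adjusted p = 0.321), Ech1 without sham replicate 4 (0.104) or banded replicate 1 (0.31), and Hadha without sham replicate 3 (0.194), banded replicate 1 (0.605) or banded replicate 2 (0.0579). All 3 calls were lost when banding and banding sham arrays alone were fitted (0.166, 0.212 and 0.204), and those of Acaa2 and Hadha when the 4 arrays alone were (0.0532 and 0.219).

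These 3 were the calls among 33 measured genes of fatty acid oxidation, where 0.211% of all genes were called lower. In 16 of the 33 both banded arrays were below both sham arrays, against 755 of all 4736 genes, and in 2, Acadl and Ucp2, they were above, against 948 of all genes. The median was -0.20 log2, -0.27 log2 after quantile normalization, and -0.21 and -0.26 log2 without sham replicates 3 and 4. Steps along the pathway had similar values without a call: the acyl-CoA dehydrogenases Acadm and Acadvl at -0.45 and -0.51 log2, Hadhb at -0.55 log2, the isomerase Eci1 at -0.52 log2, the reductase Decr1 at -0.85 ± 0.218 log2 (limma adjusted p = 0.0658), and the carnitine system genes Cpt2 and Slc25a20 at -0.45 and -0.44 log2. Cpt1b, which admits fatty acids into muscle mitochondria, was at -0.11 log2 and Cpt1a at -0.10 log2. The fatty acid binding protein Fabp3, a bright probe set, was at 0.26 log2, with sham replicate 4 at 43360 above both banded arrays and sham replicate 3 at 22381 below them.

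**Figure D3:**
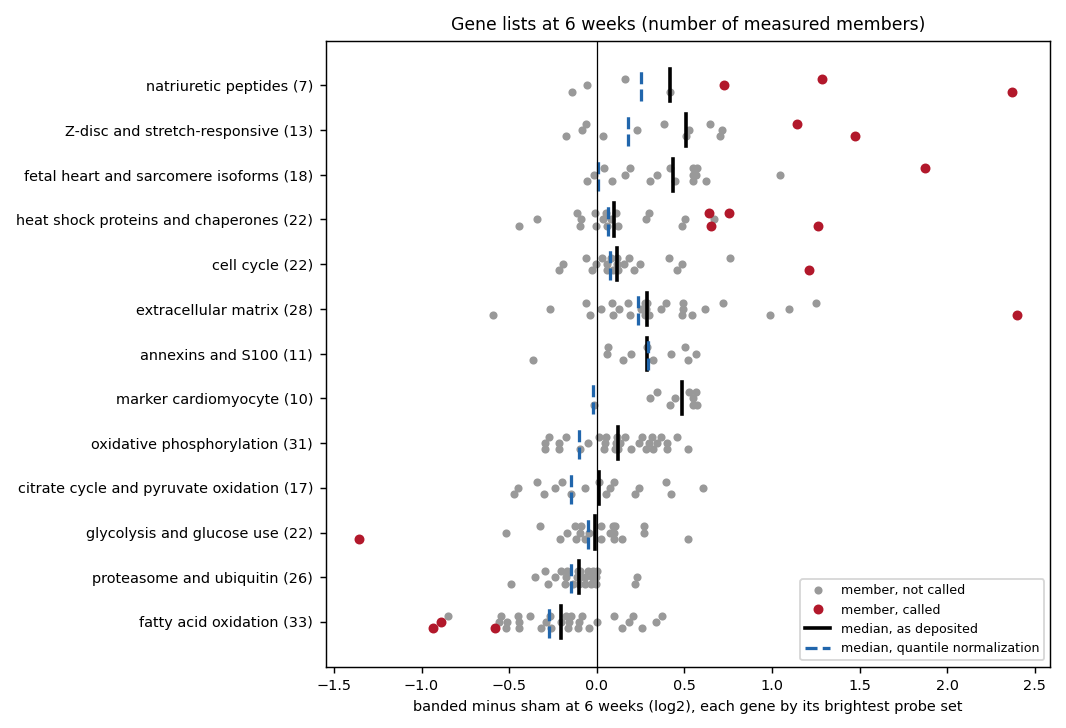
Banded minus sham difference at 6 weeks (log2, x axis) of every measured member of 13 gene lists, the number of members in brackets. Dots are genes by their brightest probe set, darker where called; solid bars are list medians as deposited and dashed bars after quantile normalization, which move apart most for cardiomyocyte markers (0.49 and -0.02 log2) and sarcomere isoforms.

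For other mitochondrial lists the sign of the median depended on the scaling. The 31 genes of oxidative phosphorylation had 0 calls and a median of 0.12 log2, which was -0.10 log2 after quantile normalization and -0.07 log2 without sham replicate 3. The 17 citrate cycle and pyruvate oxidation genes had 0 calls by the brightest probe set and a median of 0.01 log2, or -0.14 log2 after quantile normalization. Ndufab1, the mitochondrial acyl carrier protein, was called higher at 0.95 ± 0.225 log2 (limma adjusted p = 0.0349), with 26313 and 27440 units in banded hearts and 20115 and 9644 units in sham hearts. Sham replicate 4 was by far the lowest there, and without it the Ndufab1 effect was 0.42 log2 (limma adjusted p = 0.901), and 0.45 log2 after quantile normalization (0.6). Leaving out banded replicate 1 or 2 ended the call as well (0.259 and 0.267), and against the 8 banding sham arrays the effect was 0.23 log2 (0.664). The other Ndufab1 probe sets were at 0.51 and 0.30 log2 (limma adjusted p = 0.842 and 0.854), with sham replicate 3 above both banded arrays in each. Idh2, the mitochondrial NADP-dependent isocitrate dehydrogenase, stood at 0.61 ± 0.151 log2 (limma adjusted p = 0.0513) in its brightest probe set and 0.08 log2 after quantile normalization. The other Idh2 probe set was called at 0.75 ± 0.147 log2 (limma adjusted p = 0.00735), but was at 0.14 log2 after quantile normalization (0.945) and lost its call without sham replicate 3 (0.06).

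Among 22 genes of glycolysis and glucose use, 1 was called, and it was lower, where 0.211% of all genes were called lower. Eno3, the muscle enolase, had 979 and 842 units in banded hearts, against 2414 and 2247 units in sham hearts. The arrays within a group were close and the groups far apart, and the effect was -1.36 ± 0.318 log2 (limma adjusted p = 0.0312). The Eno3 effect lay between -1.25 and -1.47 log2 without single arrays, with the call lost each time (limma adjusted p = 0.111 and 0.0823 without sham replicates 3 and 4, 0.179 and 0.322 without banded replicates 1 and 2). Pfkm, the muscle phosphofructokinase, was at -0.52 log2 and the ubiquitous enolase Eno1 at 0.08 log2, neither called, and the list's median was -0.01 log2.

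Aqp7, Rab3b, Nudt4, Dhrs7c and Fam210a also fell. Aqp7, a channel for glycerol, had 1815 and 2591 units in banded hearts, against 4274 and 4167 units in sham hearts, an effect of -0.96 ± 0.232 log2 (limma adjusted p = 0.0396). Rab3b, a GTPase of vesicle release, had 3200 and 3650 units in banded hearts, against 7687 and 6352 units in sham hearts. Both its probe sets were called, at -1.03 ± 0.201 and -0.99 ± 0.206 log2 (limma adjusted p = 0.00735 and 0.0112). Nudt4, a phosphohydrolase of inositol pyrophosphates, was at -0.94 ± 0.186 log2 (limma adjusted p = 0.0077), Dhrs7c, a dehydrogenase of the sarcoplasmic reticulum, at -0.90 ± 0.208 log2 (0.0273), and the mitochondrial Fam210a at -0.62 ± 0.147 log2 (0.0335). All of these kept both banded arrays below both sham arrays and their call after quantile normalization. Leaving out banded replicate 1 ended the calls of all 5 genes (limma adjusted p = 0.871 for Aqp7, 0.17 for Rab3b, 0.159 for Nudt4, 0.37 for Dhrs7c and 0.652 for Fam210a). Sham replicate 3 was needed for all 5 as well (0.116, 0.0652, 0.0976, 0.0796 and 0.123 without it, in the same order). The calls of Aqp7, Dhrs7c and Fam210a were also lost without sham replicate 4 (0.115, 0.0989 and 0.082), and those of Nudt4, Dhrs7c and Fam210a without banded replicate 2 (0.0512, 0.128 and 0.0582). A dim probe set of Scn7a, a sodium channel, was called at -1.05 ± 0.255 log2 (limma adjusted p = 0.0426), with 228 and 266 units in banded hearts and 578 and 449 units in sham hearts. It was not called without sham replicate 3 (0.244), and the gene's brightest probe set was at -0.03 log2.

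A pair of called falls rested on sham replicate 4. Tmem101 had 1668 and 1852 units in banded hearts, against 2072 and 6566 units in sham hearts, an effect of -1.07 ± 0.231 log2 (limma adjusted p = 0.0161) that was -0.24 log2 without sham replicate 4 (0.826). The call was lost without banded replicate 1 or 2 too (0.261 and 0.081), and against the 8 banding sham arrays the effect was -0.37 log2 (0.379). A Snap23 probe set, outside the rule for named genes and chosen after its values were seen, had 286 and 309 units in banded hearts and 373 and 9228 units in sham hearts. Its effect of -2.64 ± 0.623 log2 (limma adjusted p = 0.0332) was -0.33 log2 without that array, with an adjusted p of 1.

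Of the remaining lists none had a call by the brightest probe set. The 26 proteasome and ubiquitin genes had a median of -0.10 log2, 3 of them were above 0, against 54.3% of all genes, and in 8 both banded arrays were below both sham arrays, against 755 of all 4736 genes. A dimmer probe set of Psme1, a subunit of a proteasome activator, was called lower at -0.48 ± 0.117 log2 (limma adjusted p = 0.0426), with 10220 and 9253 units in banded hearts and 13010 and 14116 units in sham hearts. The call was lost without sham replicate 3 (0.0556) or 4 (0.27), and the gene's brightest probe set was at -0.07 log2. Medians lay between -0.03 and 0.09 log2 for calcium handling and ion channels (27 genes), complement and inflammation (35), the renin-angiotensin and endothelin system (16), antioxidant and glutathione genes (26), ribosomal proteins (33) and hypoxia-responsive genes (6). Medians this near 0 could turn sign with the scaling or with an array left out, as for ribosomal proteins, at 0.04 log2 as deposited and -0.02 log2 after quantile normalization. In the antioxidant list Gpx3, the secreted glutathione peroxidase, was at 0.64 log2 in its brightest probe set (limma adjusted p = 0.171). Its other probe set was called at 0.95 ± 0.232 log2 (limma adjusted p = 0.0426), a call lost without sham replicate 4 (0.501). In the inflammation list Reg3b, a secreted lectin, had the largest value, with 831 and 919 units in banded hearts, against 314 and 364 units in sham hearts, an effect of 1.37 ± 0.409 log2 that was not called (limma adjusted p = 0.171). Agt, angiotensinogen, was at 0.23 log2 and Edn1, endothelin, at -0.29 log2.

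The cardiomyocyte markers summed to a high intensity in all 4 arrays of this ventricular tissue, though not every member was bright (lowest sham value 425). Of the 10 measured cardiomyocyte markers 0 were called, their summed intensity was 378048 and 406057 in banded hearts, against 201248 and 395828 in sham hearts, and their median of 0.49 log2 was -0.02 log2 after quantile normalization. Macrophage markers (8 genes) had a median of 0.12 log2 and sums of 18030 and 17803 in banded hearts, against 14687 and 14134 in sham hearts, with Lyz2 at 1.01 log2 (limma adjusted p = 0.601). Erythrocyte markers (4) had a median of 0.35 log2 and sums of 70345 and 72000 in banded hearts, against 45229 and 76055 in sham hearts. In these sums only sham replicate 3 was low. In 2 of the 4, Alas2 and Slc4a1, both banded arrays were above both sham arrays, against 948 of all 4736 genes, and neither was called. Atrial myocyte markers (5) included Nppa as their 1 call, where 0.528% of all genes were called higher, and had a median of 0.16 log2. Medians for smooth muscle (5 genes), endothelial (6), T and B lymphocyte (9), mast cell (9), adipocyte (6) and Schwann cell and nerve (7) markers lay between -0.06 and 0.08 log2, and Mbp was the 1 call among these. The part of cell composition in the results above was not tested.

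The later weeks of the same model, each with its own sham arrays, were set beside the 6-week effects. At 12 weeks 31 probe sets were called (0.355%), at 16 weeks 62 (0.709%) and at 30 weeks 98 (1.12%). Of the 57 called at 6 weeks 13 were also called at 12, 24 at 16 and 23 at 30 weeks, and 26 at no later week. The sign at 6 weeks was kept at all 3 later weeks by 34 of the 41 higher and 12 of the 16 lower probe sets. In 30 of the 41 the 6-week effect was the largest of the 4 weeks, a count that the choice of probe sets by their 6-week values favours. Nppa had effects of 2.37, 2.60, 2.47 and 2.20 log2 at 6, 12, 16 and 30 weeks, and Acta1 1.87, 2.14, 2.09 and 1.97 log2. The Nppa difference between 6 weeks and the mean of the later weeks was -0.06 ± 0.296 log2 (limma adjusted p = 1). It was -0.43 ± 0.274 log2 after quantile normalization, and 0.28 and -0.39 log2 without sham replicates 3 and 4 of 6 weeks. For Acta1 this difference was -0.19 log2 as deposited and -0.49 log2 after quantile normalization, called in neither. Acaa2 was at -0.89, -0.86, -1.10 and -0.97 log2 and Aqp7 at -0.96, -0.76, -1.12 and -1.04 log2. The medians of the fatty acid oxidation list were -0.20, -0.29, -0.42 and -0.24 log2 over the 4 weeks.

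**Figure D4:**
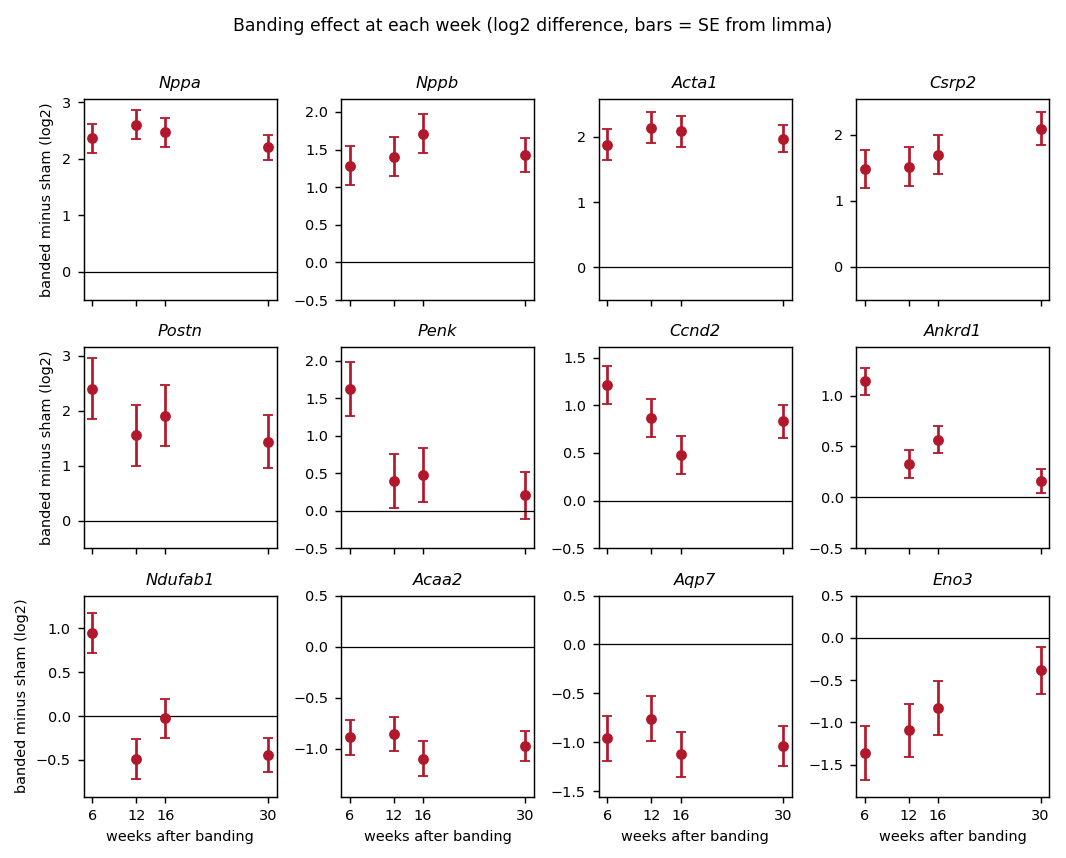
Banded minus sham difference (log2, y axis) at 6, 12, 16 and 30 weeks after banding (x axis) for 12 genes; bars are standard errors from limma, with 2 banded pools at 6, 12 and 16 weeks, 4 at 30 weeks and 2 sham pools at each. Nppa lies between 2.20 and 2.60 log2 at all 4 weeks, while the points of Penk, Ankrd1 and Ndufab1 are highest at 6 weeks, differences that were not called against the mean of the later weeks.

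The difference between the 6-week effect and the mean of the 3 later effects was tested for every probe set, and 0 were called (limma), with 323 (3.70%) at an unadjusted p below 0.05. The lowest limma adjusted p was 0.108, shared by Ankrd1 (a difference of 0.79 ± 0.153 log2), Ndufab1 (1.27 ± 0.257 log2) and the called Myh7 probe set (1.18 ± 0.245 log2). Ankrd1 had effects of 1.14, 0.33, 0.57 and 0.16 log2 at 6, 12, 16 and 30 weeks. Against sham, the banded arrays were at 1.09 and 1.19 log2 at 6 weeks, above all 8 later banded arrays, which ranged between -0.24 and 0.58 log2. Taken against 30 weeks alone, the Ankrd1 difference of 0.98 ± 0.177 log2 was called (limma adjusted p = 0.0422), and it was 0.35 ± 0.144 log2 after quantile normalization (limma adjusted p = 0.605). For Penk the 6-week arrays were at 1.68 and 1.57 log2 and the 8 later arrays between 0.04 and 0.76 log2. The groups of arrays did not overlap, but the difference of 1.26 ± 0.411 log2 from the mean later effect did not pass (limma adjusted p = 1). Akr1c3, Syt9 and Idh2 followed, at differences of 0.94, 0.60 and 0.62 log2 (limma adjusted p = 0.311, 0.567 and 0.701). Without banded replicate 1 of 6 weeks those of Akr1c3 and Syt9 were 0.50 and 0.29 log2. That of Idh2 was 0.13 log2 after quantile normalization. Cxcl14, Tmem101, Sag, C7h8orf33 and Rock1 completed the 10 smallest, with differences of -1.07, -0.98, 1.39, 0.56 and -0.57 log2 and adjusted p of 0.701 or more, and in the first 3 of these a single sham array at 6 weeks carried the difference. Sag, for example, had 2019 and 1633 units in banded hearts, against 335 and 1647 units in sham hearts. The 6-week effect of Sag was 1.29 log2 there and 0.16 log2 in its other probe set. For Cxcl14 these were -0.94 and 0.30 log2, and none of these 6-week effects was called.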

How the data were processed

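Ventricular RNA pools were hybridized to 46 Affymetrix RGU34A arrays, of which the 4 of banded and sham hearts at 6 weeks are described here. The authors normalized the arrays by invariant rank fitting in dChip and deposited 1 model-based intensity per probe set and array, from perfect-match probes only, on a linear scale. How this step treated each array's bright end was not tested, and scanner files were not used here. From the deposited intensity values log2 values were taken after raising them to at least 16 (0 to 0.0686% of values per array at 6 weeks lay below it). limma 3.58.1 in R 4.3.3 fitted a mean to each of 20 groups over all 46 arrays (lmFit, eBayes, Benjamini-Hochberg over 8740 probe sets). Arrays have no read depth, so 2 pools a group limit the precision.

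GEO's platform annotation gave 7006 probe sets 1 gene symbol, 308 several and 1426 none. A gene is given by its probe set with the highest mean log2 value. Named genes are the up to 15 called genes with the largest rise and fall, up to 6 called members of each gene list (or the 2 with the largest effect), the 10 genes with the smallest adjusted p for 6 weeks against later weeks, and Nppa, Nppb, Acta1, Myh6, Myh7 and Atp2a2. Gapdh, also in the rule, is not reported, as no probe set carried it as the only symbol. Of 800 entries in the gene lists 596 were measured. Members and gene lists were chosen with earlier results of these data known. Alternatives were other normalizations, floors, filters, sets of arrays, array weights, and leaving out each array. The fit was tested on simulated data. Promoter windows came from RefSeq.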

Additional observations from a re-analysis of the deposited data

Results flagged for a closer look

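Ankrd1 was flagged because its banding effect differed between 2 time points by a test of the difference itself. The 6-week effect minus the 30-week effect was 0.98 ± 0.177 log2 (limma adjusted p = 0.0422), with effects of 1.14 log2 at 6 weeks and 0.16 log2 at 30 weeks. It was 0.99 log2 without sham replicate 3 and 0.96 log2 without sham replicate 4 (limma adjusted p = 0.0211 and 0.0254), and 1.03 log2 without banded replicate 1 (0.0301). Without banded replicate 2 it was 0.93 log2 and the call was lost (0.111). After quantile normalization it was 0.35 log2 (limma adjusted p = 0.605), so that the call depends on the scaling. No other probe set passed against 12, 16 or 30 weeks taken alone. Groups of 2 arrays are too small for a test of outlying arrays within a group.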

How the results depend on the processing

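No paired analysis was possible because the banded arrays carry replicate numbers 1 and 2 and the sham arrays 3 and 4, with no shared number. The count of 57 called probe sets became 24 (23 higher, 1 lower, 22 shared) with banding and banding sham arrays alone in the fit, 168 (96 higher, 72 lower, 49 shared) with the 8 banding sham arrays as control, and 3154 if a lack of overlap is taken in place of limma. Leaving out 1 of the 4 arrays it ranged from 19 to 117: 117 without sham replicate 3 and 116 without sham replicate 4 (36 and 31 shared), 19 without banded replicate 1 and 28 without banded replicate 2 (15 and 20 shared). It lay between 46 and 67 under the other 9 settings, 67 after quantile normalization (58.2% higher, against 71.9%). The cause of these shifts was not tested. The count of 0 for 6 weeks against later weeks became 1 against 30 weeks alone and ranged from 0 to 47 with single arrays left out, 23 without sham replicate 3, 47 without sham replicate 4, 5 and 7 without banded replicates 1 and 2, and 8 without sham replicate 4 of 12 weeks. For 38 followed genes, 588 values under alternatives held 455 with the same direction and side of the threshold, 120 that lost and 12 that gained a call, and 1 that turned direction: Atp2a2, not called, at -0.0070 log2 after quantile normalization, against 0.55. Nppa, Acta1, Ccnd2 and Ankrd1 kept their call under every one.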
